A study of Mus musculus with 6 samples.

Results

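Pseudogene endo-siRNA target mRNAs are the transcripts of protein-coding genes that are targeted by siRNAs derived from pseudogenes. Of the 5 such genes described here, Ppp4r1, Rangap1, Kif4, Pdzd11 and Hdac1, chosen by symbol because they are known targets in mouse oocytes, 4 have a probe with that single symbol in the array's annotation, among 13840 genes with a symbol. Each of the 4 has 1 probe, and Ppp4r1 is not analysed here. The oocytes under study were 3 mature oocytes of [Ago2F/F, Zp3-Cre] females, called Ago2-deficient here, in which Cre is driven by the promoter of zona pellucida glycoprotein 3 and so acts in growing oocytes. They were compared with 3 oocytes labelled wild-type GV, the germinal vesicle stage before meiotic maturation, from adult females. Each array measured the amplified cDNA of 1 oocyte on an Applied Biosystems mouse array read by chemiluminescence. The GV labels give the oviduct as the place of collection, with cumulus cells removed by hyaluronidase. Genotype and stage differ together between the groups and cannot be told apart. Whether oocytes of a group shared a mother is not stated, and every p-value here reflects the spread among 6 single oocytes only.

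In growing mouse oocytes, an antisense transcript of a pseudogene can pair with the mRNA of its parent gene or with another copy of the pseudogene. Dicer cuts such double-stranded RNA into endogenous siRNAs, and Ago2, the Argonaute protein with slicer activity, loads them and cleaves mRNAs that match them. The 5 genes differ in function. Rangap1 is the GTPase-activating protein of Ran in nuclear transport, Kif4 is a chromosome-binding kinesin, Pdzd11 is a small protein with a single PDZ domain, Hdac1 is a histone deacetylase and Ppp4r1 is a regulatory subunit of protein phosphatase 4.

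Kif4 and Pdzd11 are neighbours that start head to head on chromosome X, and both were lower in Ago2-deficient oocytes, so the stretch between them is shown. Their RefSeq start sites (GRCm38.p6) leave 123 bases between them. The promoter windows, 250 bases before to 50 after each start, share 223 bases at chrX:100625892-100626114, printed on the plus strand, the strand of Kif4. Pdzd11 starts at base 50 and reads to the left, and Kif4 starts at base 174 and reads to the right. The window of Rangap1, the member that was higher on the quantile-normalized values, is shown for comparison at chr15:81729870-81730169 on the minus strand. Capitals mark matches on either strand to 5 short motifs. These are CCAAT, a common promoter box, and TTTGAA, the CHR element known from promoters of cell cycle genes. The others are GGGCGG, the GC box, then CACGTG, the E-box, and last TATAAA, the core letters of the TATA box. No 2 of the matches overlap.
Kif4 and Pdzd11 shared stretch: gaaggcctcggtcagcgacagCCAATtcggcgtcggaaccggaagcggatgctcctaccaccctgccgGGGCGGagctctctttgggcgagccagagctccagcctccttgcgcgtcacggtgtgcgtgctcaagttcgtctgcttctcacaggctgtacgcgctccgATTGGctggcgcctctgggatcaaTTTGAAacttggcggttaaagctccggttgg
Rangap1 window: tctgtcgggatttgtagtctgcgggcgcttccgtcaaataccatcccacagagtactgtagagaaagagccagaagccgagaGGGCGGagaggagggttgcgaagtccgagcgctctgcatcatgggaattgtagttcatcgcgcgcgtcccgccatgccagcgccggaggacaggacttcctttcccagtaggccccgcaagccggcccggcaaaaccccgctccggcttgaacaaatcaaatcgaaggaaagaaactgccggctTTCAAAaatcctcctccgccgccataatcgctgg
The shared stretch held 2 CCAAT matches, 1 TTTGAA match and 1 GGGCGG match. The Rangap1 window held 1 TTTGAA match, 1 GGGCGG match and no CCAAT match. Of all 32851 promoter windows of 300 bases, 37.4% held CCAAT, 17.9% TTTGAA and 35.7% GGGCGG. E-box and TATA box letters, in 7.15% and 13.6% of all windows, were found in none of the 3 windows. The full 300-base windows of Kif4 and Pdzd11 each held 2 CCAAT matches as well. A match is a description of the letters and not a site, and a link between matches and the direction of change was not tested.

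Detection was lower on the Ago2-deficient arrays. The detection limit was a signal-to-noise ratio of 3, reached by 4620 to 6798 of 33012 probes in Ago2-deficient oocytes, against 10650 to 11334 in GV oocytes. Values are on the log2 scale of the signal, quantile normalized over the 6 arrays by the authors, and equal amounts of cDNA went into labelling, so the RNA content of an oocyte is not measured. Of 14 oocyte markers 8 were detected in every Ago2-deficient oocyte and 13 in every GV oocyte. Gdf9, a growth factor of the oocyte, averaged 19.33 ± 0.23 in Ago2-deficient and 20.35 ± 0.11 in GV oocytes (SD, n = 3 each). The summed normalized signal of the 14 markers, on the linear scale, was 1302970 to 1499410 in Ago2-deficient and 4933630 to 5175640 in GV oocytes. Ddx4, a germ cell helicase, was detected in no Ago2-deficient oocyte and in 1 GV oocyte, and Zp2, Figla and Kit in no Ago2-deficient oocyte. Of 12 cumulus and granulosa markers 2, Ereg and Btc, were detected in every Ago2-deficient oocyte and 1, Inha, in every GV oocyte. In each group 7 markers were detected in none of its oocytes, but these were not all the same genes. Fshr and Amh were undetected in both groups, Ereg and Btc in GV oocytes only and Inha in Ago2-deficient oocytes only. The summed signal of the 12 markers was 14078 to 40259 in Ago2-deficient and 3181 to 5879 in GV oocytes, and its part in the results below was not tested. The Ago2 probe read 6.67, 6.49 and 6.94 in Ago2-deficient oocytes, against 7.88, 6.25 and 6.93 in GV oocytes. Only 1 GV oocyte reached the detection limit for it, and the sources used here do not place it relative to the deleted exons, so it does not check the genotype.

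The siRNA target mRNAs did not move together. Kif4 and Pdzd11 were lower in Ago2-deficient than in GV oocytes, Rangap1 was higher on the quantile-normalized values, and Hdac1 was near or below detection in both groups. The limma test took in probes that reached the limit in all 3 oocytes of either group, and the call needed a fold change over 2 with a p under 0.05 after Benjamini-Hochberg adjustment over all tested probes. Of the 4 members with a probe, 3 were tested, 1 was called higher and 2 lower. Of all 7915 tested genes 62.2% were called, 17.4% higher (1378 genes) and 44.8% lower (3543), so a call of a member is not by itself unusual on these arrays. Other scalings of the deposited signal moved this split. It was 311 higher and 6223 lower under median scaling, in which every array is given 1 median. That median is taken over all probes, most of them not detected. Before scaling it was 168 to 258 on Ago2-deficient and 93 to 116 on GV arrays. On unscaled signals 609 genes were higher and 4778 lower. With cyclic loess, which here aligns each array to the average of all arrays along the range of signal, 1952 were higher and 2515 lower. Shared-probe centring, which sets the mean of the probes detected on all 6 arrays equal, gave 1301 higher and 3145 lower. All 3 tested members passed the detection filter through the GV oocytes alone, since none reached the limit in all 3 Ago2-deficient oocytes. The median log2 difference over all tested genes was -1.39. Among the 2497 genes detected on all 6 arrays, which hold no siRNA target, it was 0.83, and 1128 genes were called higher and 543 lower.

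**Figure D1:**
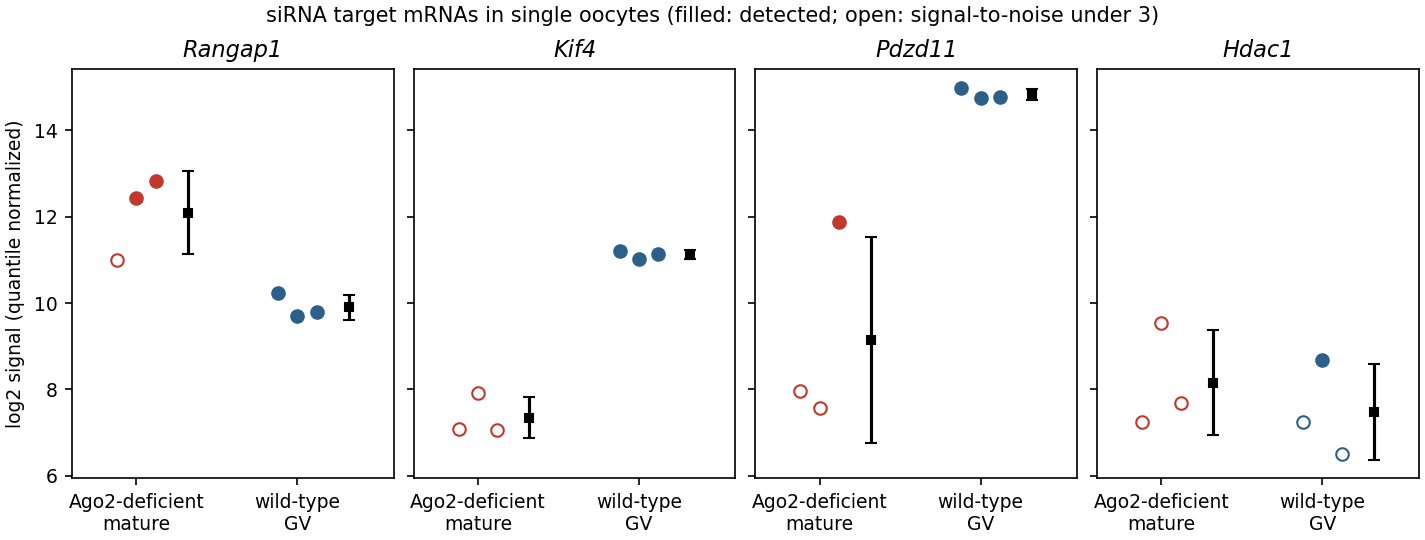
Quantile-normalized log2 signal (vertical axis) of the 4 siRNA target genes with a probe in 3 Ago2-deficient mature oocytes (left in each panel) and 3 wild-type GV oocytes (right); circles are single oocytes, filled where the probe was detected, and squares show the mean with SD bars. Kif4 and Pdzd11 lie lower in every Ago2-deficient oocyte, Rangap1 lies higher, and the groups overlap for Hdac1.

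Pdzd11 was lower in Ago2-deficient oocytes. The protein binds the tails of membrane proteins, among them copper and calcium pumps. Its signal read 7.96, 7.56 and 11.88 in Ago2-deficient oocytes, against 14.99, 14.75 and 14.76 in GV oocytes. The 3 GV oocytes lay within a narrow band above every Ago2-deficient oocyte, while Ago2-deficient replicate 3 stood well above the other two. The means were 9.13 ± 2.39 in Ago2-deficient and 14.83 ± 0.13 in GV oocytes (SD, n = 3 each), a log2 difference of -5.70 (standard error 1.11, 95% interval -8.36 to -3.03, adjusted p = 0.00441 from limma). The signal-to-noise ratio was 2.48, 2.80 and 17.25 in Ago2-deficient oocytes and 79.58, 83.83 and 89.97 in GV oocytes. The transcript was thus detected in 1 Ago2-deficient oocyte, and the other two were just under the limit. Of all tested genes 18.3% were likewise detected in a single Ago2-deficient oocyte. The difference was -7.07 without Ago2-deficient replicate 3, -5.11 without Ago2-deficient replicate 1 and -4.91 without Ago2-deficient replicate 2. Each of these remained called (adjusted p = 0.000434, 0.00973 and 0.0135 from limma).

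Kif4 was lower as well and fell below detection. Its product, a chromokinesin, binds chromosome arms and, with Prc1, the central spindle. The signal read 7.09, 7.90 and 7.05 in Ago2-deficient oocytes, against 11.21, 11.01 and 11.14 in GV oocytes. All 3 Ago2-deficient oocytes were low, and the groups did not overlap. Groups that did not overlap were found in 70.4% of tested genes, with Ago2-deficient oocytes below in 50.3%. The means were 7.35 ± 0.48 in Ago2-deficient and 11.12 ± 0.10 in GV oocytes (SD, n = 3 each), and limma gave an adjusted p = 0.000303. The signal-to-noise ratio was 0.20, 1.56 and 0.61 in Ago2-deficient oocytes and 37.56, 30.62 and 40.97 in GV oocytes. Kif4 was therefore detected in no Ago2-deficient oocyte, as were 32.8% of tested genes, and its fold change is given as a bound. This took the GV mean and, for each Ago2-deficient array, the probe's own signal or the dimmest detected signal, whichever was brighter. The bound was 13.7-fold lower in Ago2-deficient oocytes. On each of these arrays the probe's own signal was the brighter, so the bound is the fold of the log2 difference of -3.77. The 95% interval of that difference was -4.64 to -2.90, which includes smaller changes. Neither this bound nor those of other genes allow for the spread among oocytes. The bound depended on the scaling and was 3.04 with cyclic loess, 8.58 under shared-probe centring and 39.8 under median scaling.

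Rangap1 was higher in Ago2-deficient oocytes on the quantile-normalized values but differed by -0.42 under median scaling (adjusted p = 0.560 from limma). The protein sits at the nuclear pore and at kinetochores, where it stimulates GTP hydrolysis by Ran. The signal read 11.01, 12.43 and 12.83 in Ago2-deficient oocytes, against 10.23, 9.69 and 9.78 in GV oocytes. Every Ago2-deficient oocyte lay above the GV oocytes, replicate 1 by the least. The means were 12.09 ± 0.96 in Ago2-deficient and 9.90 ± 0.29 in GV oocytes (SD, n = 3 each), a log2 difference of 2.19 (standard error 0.53, 95% interval 0.91 to 3.47, adjusted p = 0.0109 from limma). Ago2-deficient oocytes lay above all GV oocytes in 20.2% of tested genes, and 885 tested genes had a higher difference than Rangap1. The signal-to-noise ratio was 1.97, 9.34 and 18.86 in Ago2-deficient oocytes and 13.16, 9.53 and 7.90 in GV oocytes, so that the probe was not detected in Ago2-deficient replicate 1. The deposited signal before scaling was 885, 3877 and 3322 in Ago2-deficient oocytes, against 2326, 1086 and 1094 in GV oocytes. On that scale the groups overlapped, since Ago2-deficient replicate 1 was below all 3 GV oocytes. On unscaled signals the difference was 0.68 (adjusted p = 0.350 from limma), and it was 3.54 with cyclic loess and 1.79 under shared-probe centring, both called.

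**Figure D2:**
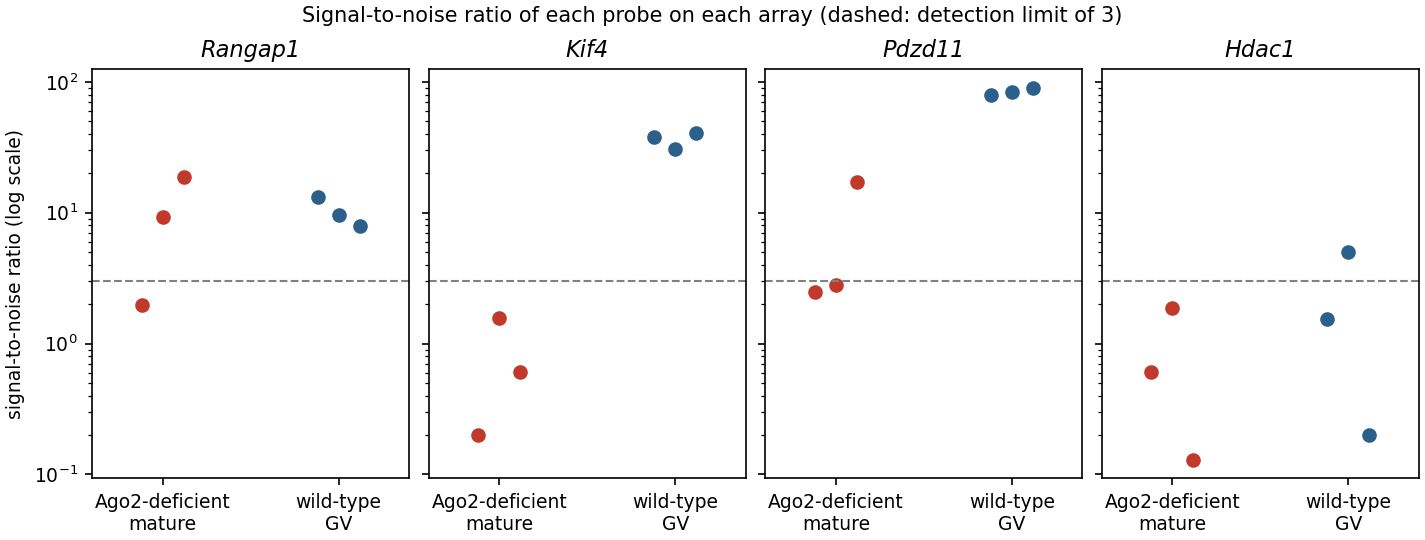
Signal-to-noise ratio (vertical axis, log scale) of the 4 probes in Ago2-deficient mature (left in each panel) and wild-type GV oocytes (right); circles are single oocytes and the dashed line is the detection limit of 3. Kif4 stays under the limit in all 3 Ago2-deficient oocytes and reaches 30.62 to 40.97 in GV oocytes, while Hdac1 passes it in 1 GV oocyte only.

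Hdac1 gave no measurable difference. It is a class I histone deacetylase that works in several repressor complexes. The signal read 7.24, 9.55 and 7.68 in Ago2-deficient oocytes, against 7.25, 8.67 and 6.50 in GV oocytes. The groups overlapped, and the spread within each was wider than the gap between their means. The signal-to-noise ratio was 0.61, 1.88 and 0.13 in Ago2-deficient oocytes and 1.55, 5.05 and 0.20 in GV oocytes, so the probe was detected only in GV replicate 2 and was left out of the test. The means were 8.16 ± 1.23 in Ago2-deficient and 7.47 ± 1.10 in GV oocytes (SD, n = 3 each, exact permutation test, two-sided p = 0.6, where the smallest that 3 arrays against 3 allow is 0.1). Fitted without the detection filter, the difference was 0.68 with a 95% interval of -1.14 to 2.50 (adjusted p = 0.641 from limma), and without Ago2-deficient replicate 2 it was -0.01. Under shared-probe centring it was 2.41 (adjusted p = 0.0134 from limma), a value that rests on signals under the detection limit on 5 of 6 arrays. Hdac2, the closest paralog of Hdac1, was detected on all 6 arrays at 14.52 ± 0.12 in Ago2-deficient and 14.35 ± 0.16 in GV oocytes (SD, n = 3 each), and its difference of 0.17 was not called (adjusted p = 0.646 from limma) but was -2.97 and called under median scaling.

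Relative to the median of all tested genes the quantile-normalized difference was 3.58 for Rangap1, -2.38 for Kif4 and -4.31 for Pdzd11. With cyclic loess these were 3.89, -1.25 and -3.73. Median scaling, unscaled signals and shared-probe centring gave 2.66, -2.23 and -4.71 alike, because each shifts all genes of an array by the same amount, so these 3 settings are 1 comparison and not separate ones. All of these keep the detection filter, on which the reference median depends. Without the filter the median of the quantile-normalized differences was 0.13. Relative to it Rangap1 stood at 2.06, Kif4 at -3.90 and Pdzd11 at -5.83. The values of Kif4, and of Pdzd11 in the 2 oocytes without detection, are those of signals under the detection limit. Within-array ratios of deposited signals hold no scaling between arrays, and they compare how unequally 2 members changed, not their levels. Rangap1 and Pdzd11 were both detected in 1 Ago2-deficient oocyte, replicate 3, where the log2 ratio of Rangap1 to Pdzd11 signal was 1.01, against -4.87, -5.65 and -5.53 in GV oocytes. In the other two Ago2-deficient oocytes the ratio of 1.39 and 3.67 rests on at least 1 undetected probe. Kif4 was detected in no Ago2-deficient oocyte, so no ratio with Kif4 compares 2 measured signals there. In Ago2-deficient replicates 1 and 2 the log2 ratio of Kif4 to Pdzd11 signal was -0.54 and 0.23, with neither probe detected. In replicate 3, with Pdzd11 but not Kif4 detected, it was -3.46. The ratio was -3.61, -3.90 and -3.69 in GV oocytes.

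**Figure D3:**
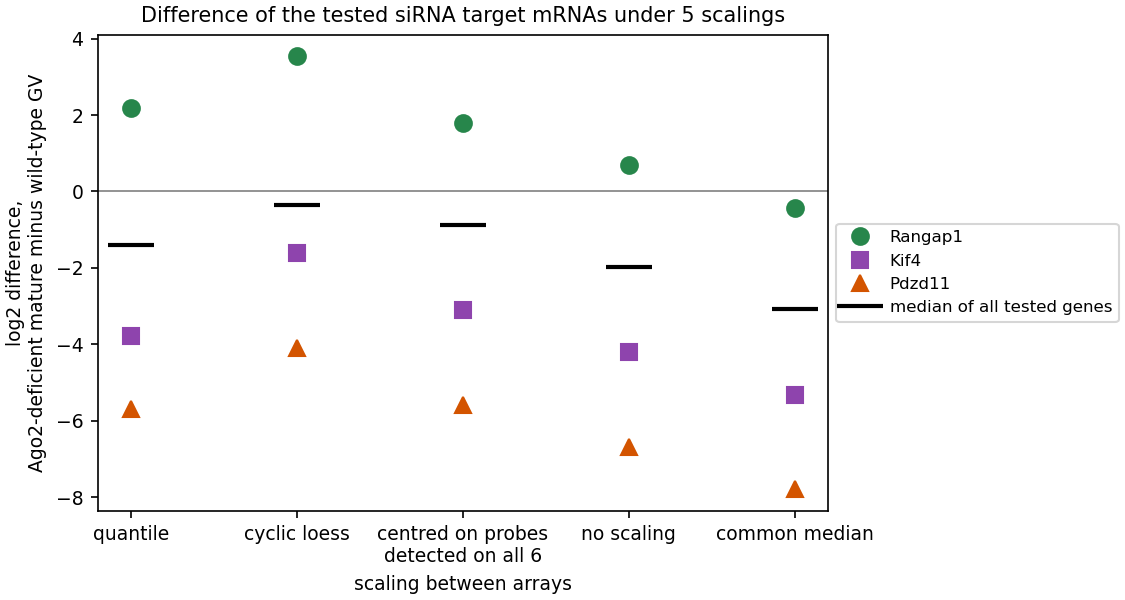
Log2 difference between Ago2-deficient mature oocytes and GV oocytes, GV subtracted (vertical axis), of Rangap1, Kif4 and Pdzd11 under 5 scalings between arrays (horizontal axis); black bars are the median of all tested genes. Rangap1 moves from 2.19 with quantile normalization to -0.42 with a common median but stays above the black bars, and Kif4 and Pdzd11 stay below them.

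Across the 6 arrays Kif4 and Pdzd11 had a Pearson r of 0.85, Rangap1 and Kif4 of -0.85, and Rangap1 and Pdzd11 of -0.67, as a description of arrays that fall into the same 2 groups. Among 4565 tested genes with a symbol, the profiles most like that of Rangap1 were those of Pcm1 (r = 0.996), Dek (0.995) and Ptges3 (0.993). Nearest to Kif4 were Cdc16, Pitrm1 and Syt16 (r = 0.999 each), and nearest to Pdzd11 were Gcat (0.998), Polr2c (0.998) and Gtdc1 (0.998). An r over 0.99 was reached by 5 genes for Rangap1, 152 for Kif4 and 43 for Pdzd11. Nothing about shared function follows from these values.

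Among genes of the small RNA pathways, Dicer1, Drosha and Tarbp2 were lower in Ago2-deficient oocytes, and Ago4 had the brighter signal there. Of 9 of these genes with a probe 4 were tested and 4 were called lower, beside 44.8% of all tested genes. All 4 passed the detection filter through the GV oocytes alone, a route that favours genes lower in Ago2-deficient oocytes. How far it set their shared direction was not tested. Without the filter 3 genes of this list were called lower and 1 higher. Dicer1, which makes siRNAs, read 5.95, 7.93 and 8.05 in Ago2-deficient oocytes, against 14.41, 14.07 and 14.38 in GV oocytes. It was detected in 1 Ago2-deficient oocyte and had a log2 difference of -6.98 with an adjusted p = 0.000235 from limma (standard error 0.61). Drosha, which acts in the miRNA but not the siRNA pathway, was lower with a bound of 129-fold by its brightest probe. Its other 2 tested probes differed by -1.33 and 0.03 and were not called. Tarbp2, which binds double-stranded RNA together with Dicer, fell below detection and was lower with a bound of 14.5-fold. Xpo5, which exports miRNA precursors from the nucleus, had a bound of at least 2.92-fold lower signal (adjusted p = 0.0380 from limma), but its difference was 0.26 with cyclic loess and its call was lost under shared-probe centring, without the detection filter, with a trended and robust variance, with ordinary t-statistics and without Ago2-deficient replicate 1 (adjusted p = 0.0712) or 3 (0.0807) or GV replicate 1 (0.0937), 2 (0.114) or 3 (0.0997). Ago4, an Argonaute protein, was detected in 2 Ago2-deficient and 0 GV oocytes and so was left out by the filter. It averaged 10.66 ± 0.76 in Ago2-deficient and 7.56 ± 0.17 in GV oocytes (SD, n = 3 each). It was called higher by 3.10 without the detection filter (adjusted p = 0.00484 from limma) and by 3.54 without Ago2-deficient replicate 1 (adjusted p = 0.000372).

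Several genes that act with Rangap1 in the Ran cycle were lower in Ago2-deficient oocytes. Of 8 with a probe 6 were tested, and 5 were called lower and 0 higher, beside 44.8% and 17.4% of all tested genes. Of the 6, 4 passed the detection filter through the GV oocytes alone. Kpnb1, the importin beta subunit and the 1 called gene of this list detected on all 6 arrays, differed by -3.15. Kpna2, an importin alpha, was lower with a bound of 21.5-fold by its tested probe. Its other probe, detected in 1 Ago2-deficient and 0 GV oocytes and not tested, had the brighter mean in Ago2-deficient oocytes, with GV oocytes at 7.30. The exportin Xpo1 differed by -3.42 and Ranbp1, a co-activator of Ran GTPase activation, by -3.31. Tpx2, a spindle assembly factor released by Ran, was not called at 0.27, though it differed by -2.35 and was called under median scaling. Rcc1, the nucleotide exchange factor of Ran, differed by -2.12 (adjusted p = 0.0459 from limma), but by -0.37 with cyclic loess, and its call was also lost without the detection filter, with ordinary t-statistics, with the replicate block (adjusted p = 0.0538) and without Ago2-deficient replicate 2 (0.0538) or GV replicate 1 (0.124), 2 (0.107) or 3 (0.111). Ran itself was detected on no array. Under the 5 scalings no gene of this list was called higher.

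Partners of Kif4 at the central spindle and on chromosomes changed in both directions. Of 12 with a probe 8 were tested, 4 were called lower and 1 higher, beside 44.8% and 17.4% of all tested genes. The 4 lower ones passed the detection filter through the GV oocytes alone, and in the lists that follow this held for 1 of 2, 2 of 3 and 8 of 18 tested genes. Incenp of the chromosomal passenger complex differed by -4.84, Racgap1 of the centralspindlin complex by -3.76 and the kinesin Kif20a by -2.86. Kif20a was no longer called with cyclic loess (-1.58, adjusted p = 0.0955 from limma), without the detection filter, with ordinary t-statistics, without Ago2-deficient replicate 3 (adjusted p = 0.0703) or without GV replicate 1, 2 or 3 (adjusted p = 0.109, 0.103 and 0.114). Prc1, the microtubule crosslinker that binds Kif4, was detected on all 6 arrays at 15.74 ± 0.60 in Ago2-deficient and 15.52 ± 0.35 in GV oocytes (SD, n = 3 each), and its difference of 0.22 was not called (adjusted p = 0.675) but was -2.60 and called under median scaling. Smc4, a condensin subunit named after its value was seen as the 1 higher member, differed by 2.27, but by -0.92 under median scaling and by 0.18 on unscaled signals, neither called.

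Few partners of Pdzd11 and of Ppp4r1 were measurable. Of 6 Pdzd11 partners with a probe 2 were tested. Slc5a6, a vitamin transporter, was lower with a bound of 3.80-fold (adjusted p = 0.0244 from limma). This call was lost with cyclic loess, under shared-probe centring, without the detection filter and with ordinary t-statistics. It was also lost without Ago2-deficient replicate 2 or 3 (adjusted p = 0.0679 and 0.0564) or GV replicate 1, 2 or 3 (adjusted p = 0.0639, 0.0747 and 0.0820). Tspan33, a tetraspanin, was not called at a difference of -0.93 (adjusted p = 0.0672) but reached a call at -1.20 without Ago2-deficient replicate 1, at -1.10 with array weights, and under every scaling tried other than quantile normalization and cyclic loess, at -3.89 under median scaling. Of 6 genes of the protein phosphatase 4 complex and its regulators with a probe 3 were tested. Of these, 2 were called lower, beside 44.8% of all tested genes. Tiprl, a binding protein of the catalytic subunit, was lower with a bound of 8.18-fold and Ppp4r3a, a regulatory subunit, with a bound of 3.24-fold. Neither was called with cyclic loess, and Ppp4r3a also lost its call under shared-probe centring, without the detection filter and without GV replicate 1, 2 or 3 (adjusted p = 0.0606, 0.0594 and 0.0557). Ppp4r2, another regulatory subunit, was not called at -1.23 by its brighter probe, which was called at -1.81 without Ago2-deficient replicate 3 and at -4.13 under median scaling, at -3.03 on unscaled signals and at -1.92 under shared-probe centring, and its other probe was called at -3.04.

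Genes of the Hdac1 complexes were the most evenly split list. Of 21 with a probe 18 were tested, 5 were called higher and 5 lower, beside 17.4% and 44.8% of all tested genes. The median difference of the 18 was -0.60, beside -1.39 for all tested genes. The counts were 2 higher and 12 lower under median scaling and 2 and 9 on unscaled signals. Chd4, the helicase of the NuRD complex, was higher by 4.81 and by 4.97 in its 2 tested probes, and averaged 14.45 ± 0.28 in Ago2-deficient and 9.64 ± 0.59 in GV oocytes by the brighter one (SD, n = 3 each). Ing1, a reader of histone methylation in the Sin3 complex, was higher by 4.32, and Sap18 of the same complex was lower, by -3.71. By their brightest tested probe Chd4, Ing1 and Sap18 kept their calls and directions under all 5 scalings. Sap18 and Chd4 each have another probe that was not tested, detected in 0 Ago2-deficient oocytes and 1 GV oocyte. Its means ran the other way, at 9.25 in Ago2-deficient and 7.04 in GV oocytes for Sap18, and at 7.63 and 8.35 for Chd4.

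**Figure D4:**
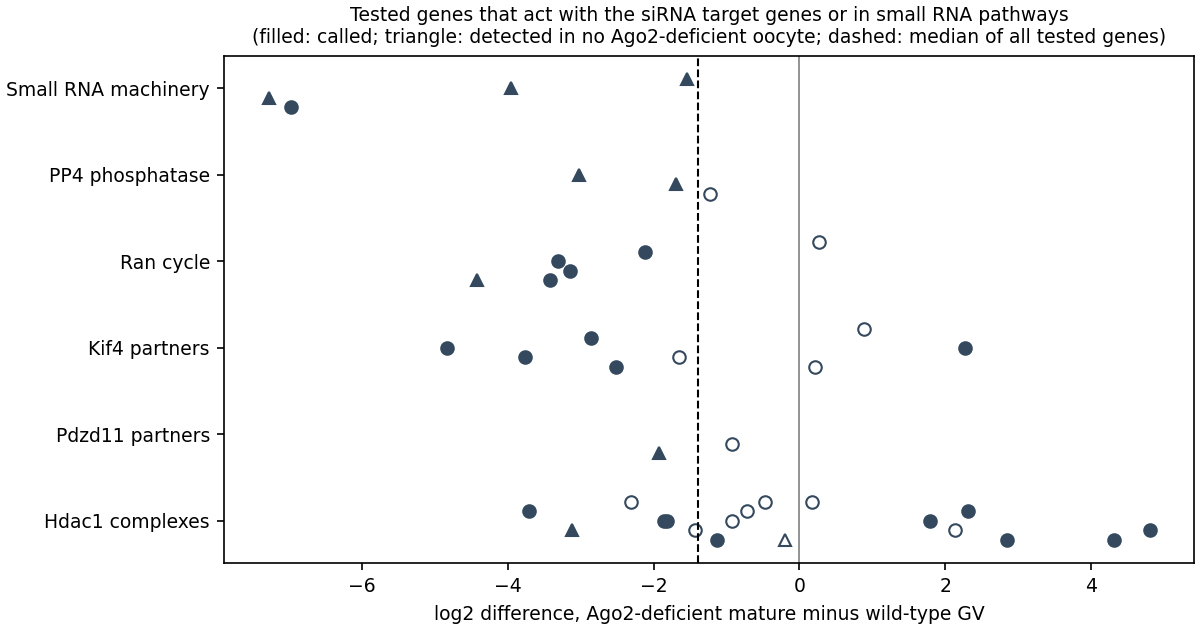
Log2 difference between Ago2-deficient mature oocytes and GV oocytes, GV subtracted (horizontal axis), of each tested gene in 6 lists of genes that act with the siRNA target genes or in small RNA pathways; filled symbols are called, open symbols are not, triangles were detected in no Ago2-deficient oocyte, and the dashed line marks -1.39, the median over all tested genes. The 4 tested genes of the small RNA machinery and all but 1 gene of the Ran cycle lie left of 0, while the Hdac1 complexes lie on both sides.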

How the data were processed

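The arrays measured 1 oocyte each, 3 Ago2-deficient mature and 3 wild-type GV. The authors amplified cDNA, hybridized labelled cRNA and deposited for each probe the scanner's signal intensity, a score for signal to noise, a flag, and log2 values after quantile normalization of the 6 arrays. The series table repeats these log2 values but leaves 2675 cells empty. No source used here names the scanner software. Probes were named from the platform annotation: 14411 of 33012 carry 1 symbol, 247 several and 18354 none. The log2 values of 8018 probes (7915 genes, a gene counted by its brightest tested probe) were analysed in R 4.3.3 by lmFit and eBayes of limma 3.58.1, without a replicate block. Named genes are the siRNA targets, Hdac2, Ago2 and Dicer1, the 3 nearest profiles, and in each partner list up to 3 called genes with the largest change and the brightest gene not called; others were named after their values were seen. Members and lists were chosen with earlier results of these data known. The fit was tested on simulated data. No source used here gives the probe sequences, and whether a probe also reads a pseudogene transcript was not tested. The number of arrays limits the precision. Promoter windows are from RefSeq (GRCm38.p6), which held 3 of the 5 members. Plots used matplotlib 3.10.9 and Python 3.11.15.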

Additional observations from a re-analysis of the deposited data

How the results depend on the processing

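The calls of Kif4 and Pdzd11 as lower held under each alternative in which they were tested. With only probes detected on all 6 arrays no member was tested, so 0 were called higher and 0 lower. The Rangap1 call was lost under median scaling (-0.42) and on unscaled signals (0.68), which left 0 members called higher. It kept its call with each array left out in turn, at 1.82 to 2.73, as did Pdzd11 at -7.07 to -4.91 and Kif4 at -4.05 to -3.62 (bound 12.3 to 16.6). The Kif4 bound was 39.8 under median scaling, 3.04 with cyclic loess and 8.58 under shared-probe centring. Hdac1, fitted without the filter, ran over -0.0143 to 1.28 with each array left out. Over all genes, 1378 were called higher and 3543 lower, against 311 and 6223 under median scaling, 609 higher on unscaled signals, and 1128 higher and 543 lower among probes detected on all 6 arrays, where the balance of calls turned round. The cause of these shifts was not tested. Oocytes with the same number in the 2 groups did not deviate together (r = -0.0485, 0.0277 and -0.0343). With the replicate number as a block, 1291 genes were called higher and 3384 lower, and Rangap1 (2.19, adjusted p = 0.0286 from limma), Kif4 (0.00344) and Pdzd11 (0.00733) kept their calls. Among the partner lists, the count called lower ran over 0 to 3 for protein phosphatase 4, 1 to 6 for the Ran cycle, 0 to 7 for Kif4 partners, 0 to 2 for Pdzd11 partners and 4 to 12 for Hdac1 complexes, and 0 to 4 for the small RNA machinery. In that list 1 gene, Ago4, was called higher without the detection filter and without Ago2-deficient replicate 1, against 0 otherwise. Signals under the detection limit set most of the Ago2-deficient values of Kif4 and Pdzd11.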
